A study of Mus musculus with 6 samples.

Results

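The 10 genes described here make, bind and destroy retinoic acid. They are *Rdh10* and *Dhrs3*, *Aldh1a1*, *Aldh1a2* and *Aldh1a3*, *Crabp1* and *Crabp2*, and *Cyp26a1*, *Cyp26b1* and *Cyp26c1*. They were chosen by name for their place in the pathway, and all 10 are among the 53657 gene names of the deposited count files. The libraries were made from Aundiff (undifferentiated spermatogonia, the pool that holds the spermatogonial stem cells) of adult mice, sorted from dissociated testes as tdTomato-positive cells that were bright for the surface protein MCAM, 3 months after tamoxifen. The 3 WT mice carried *Gfra1-creERT2*, a tamoxifen-activated Cre recombinase driven by the *Gfra1* promoter, and the Cre-dependent reporter *tdTomato*. The 3 MUT mice carried both of these and *FR-Hras*, an allele at the endogenous locus that Cre converts from wild-type *Hras* to *Hras* G12V, so that they were labelled heterozygous for the mutation. Both groups received tamoxifen, the WT mice were littermates without *FR-Hras*, and all were of a mixed C57BL/6J, 129/Sv and Swiss Black background. Tamoxifen was given in repeated courses. MCAM is also made by somatic cells of the testis, and a MUT sample can contain sorted cells in which the reporter recombined and *Hras* did not. From variant calls in the RNA-seq reads, the paper proposes that most of the sorted MUT cells carried the mutation.

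Retinoic acid is made from vitamin A inside tissues. RDH10 oxidizes retinol to retinaldehyde and DHRS3 turns retinaldehyde back into retinol, while the ALDH1A enzymes oxidize retinaldehyde to retinoic acid. CRABP1 and CRABP2 bind retinoic acid in the cytoplasm, CYP26 enzymes hydroxylate and thereby inactivate it, and what reaches the nucleus acts through the RAR and RXR receptors. In the testis a pulse of retinoic acid moves Aundiff into differentiation and later starts meiosis, and somatic cells as well as germ cells are known to make and break it down. *Cyp26a1* is a textbook target of the signal it removes, through retinoic acid response elements in its promoter.

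Such an element is a direct repeat of a short hexamer. The 300 bases around the start sites of the members, from 250 bases before to 50 bases after, were read from RefSeq on GRCm38.p6, where 7 of the 10 genes had a window, with 10 windows in all. *Aldh1a3*, *Crabp2* and *Rdh10* had no window and were not searched. Repeats of AGGTCA or AGTTCA or GGGTCA or GGTTCA in any combination, spaced by 5, 2 or 1 bases, were searched on both strands. Only the *Cyp26a1* window held one, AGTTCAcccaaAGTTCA, with 5 bases between the hexamers, on the minus strand from 32 to 16 bases before the start site (chromosome 19, 37697776 to 37697792). A repeat with this spacing was present in 0.0974% of the 32851 promoter windows of all genes, and one with any of the spacings in 0.588%. The windows of *Cyp26a1*, of *Cyp26b1* as the most abundant gene of the same family, and of *Crabp1* as the most abundant member are printed 5′ to 3′ along the strand of the gene, with capitals on the hexamers of the repeat, which read there as their reverse complement. A match describes these letters and is not evidence of a site in use.
Cyp26a1, chr19:37697558-37697857, plus strand: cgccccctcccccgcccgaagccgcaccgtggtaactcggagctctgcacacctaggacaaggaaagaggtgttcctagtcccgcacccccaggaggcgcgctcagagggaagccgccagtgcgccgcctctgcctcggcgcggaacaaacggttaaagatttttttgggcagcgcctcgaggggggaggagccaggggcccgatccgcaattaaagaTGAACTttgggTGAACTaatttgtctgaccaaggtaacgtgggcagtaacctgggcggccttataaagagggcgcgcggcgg
Cyp26b1, chr6:84593761-84594060, minus strand: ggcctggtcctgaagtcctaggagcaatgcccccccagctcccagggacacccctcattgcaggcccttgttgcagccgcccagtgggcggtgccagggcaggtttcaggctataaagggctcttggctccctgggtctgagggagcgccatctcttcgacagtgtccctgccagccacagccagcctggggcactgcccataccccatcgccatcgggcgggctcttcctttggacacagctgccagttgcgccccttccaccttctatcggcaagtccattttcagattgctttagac
Crabp1, chr9:54764498-54764797, plus strand: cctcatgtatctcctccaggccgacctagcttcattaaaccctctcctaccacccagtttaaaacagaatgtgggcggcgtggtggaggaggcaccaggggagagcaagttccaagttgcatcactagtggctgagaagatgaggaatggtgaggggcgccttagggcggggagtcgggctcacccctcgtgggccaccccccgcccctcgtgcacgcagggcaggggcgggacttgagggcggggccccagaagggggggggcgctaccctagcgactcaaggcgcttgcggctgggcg

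The libraries held between 22729292 and 23550433 fragments counted on genes, and at these depths 3 counts, the upper limit that a count of 0 allows, correspond to 0.127 to 0.132 CPM (the count scaled to a library of 1e+06 fragments). This floor is given before the TMM scaling between libraries, which all other CPM values include. All 10 genes passed the expression filter, with the lowest count, 25, for *Crabp2* in MUT replicate 3. No exon base of any of the 10 genes lies in an exon of another gene of the annotation used for counting. The defining markers of Aundiff were present, with summed levels of the 8 listed genes (*Gfra1*, *Ret*, *Zbtb16*, *Id4*, *Nanos2*, *Etv5*, *Lhx1* and *Eomes*) between 877.9 and 1292 CPM. Markers of other cells were present too, and no listed marker was at 0 in every sample. The sums over the samples ran from 501 to 725 CPM for differentiating spermatogonia, 279.5 to 462 CPM for spermatocytes, 592 to 1457 CPM for spermatids, 315 to 531 CPM for macrophages, 36.7 to 48.5 CPM for endothelial cells, 18.8 to 29.4 CPM for Sertoli cells, 7.90 to 12.8 CPM for peritubular myoid cells and 12.9 to 67.2 CPM for Leydig cells. *Hras* counted as a whole gene does not separate the alleles, and MUT exceeded WT by 0.14 on the log2 scale (SE 0.083, with an adjusted p of 0.998 in edgeR). In such bulk samples fewer cells of a type and less RNA per cell cannot be told apart.

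*Crabp1* was by far the most abundant of the 10 genes. Per length, its level was 129.9 ± 13.5 FPKM (CPM divided by the exon length in kilobases, SD over 6 samples), above the mean level of 99.1% of the 19656 genes tested and 7.10 times that of the next gene. *Aldh1a2* followed at 18.3 ± 1.80 FPKM and *Cyp26b1* at 7.30 ± 1.28 FPKM (both SD, 6 samples), and the ranges of these 3 genes did not overlap. The range of *Cyp26b1*, from 5.98 to 9.03 FPKM, was met from below only by *Aldh1a1* in MUT replicate 3, at 7.05 FPKM. Then came 5 genes whose neighbours in the order overlapped, *Cyp26a1* at 4.58 FPKM, *Aldh1a1* at 3.92, *Rdh10* at 3.91, *Dhrs3* at 3.50 and *Aldh1a3* at 3.49 FPKM, each above 47.8% to 53.4% of the tested genes. The lowest levels were those of *Crabp2*, at 1.11 ± 0.246 FPKM, and *Cyp26c1*, at 0.887 ± 0.122 FPKM (SD, 6 samples), which overlapped each other and lay below all other members in every sample.

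**Figure D1:**
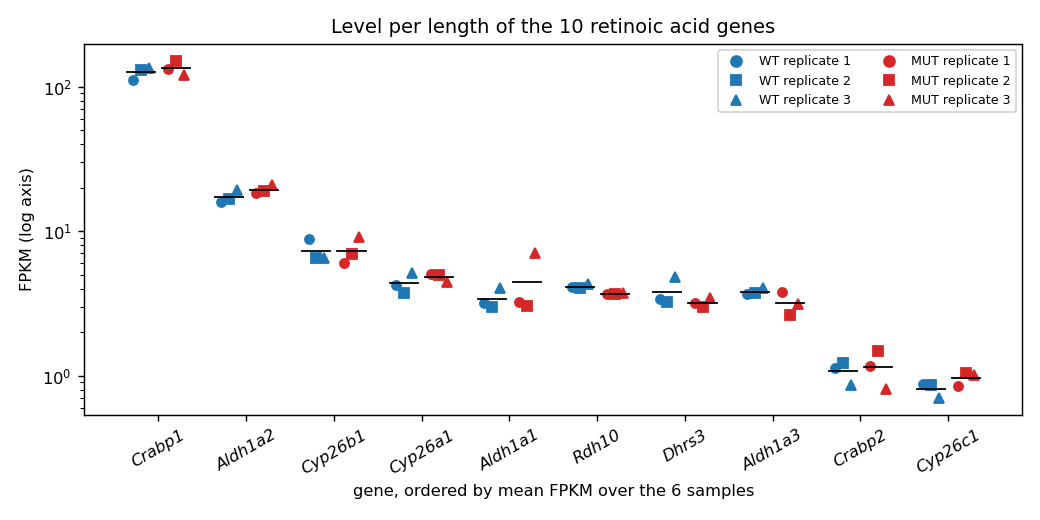
Level per length of each gene in each sample, as FPKM on a log axis, with WT in blue, MUT in red, the shape of the symbol standing for the replicate and the group mean as a black line. *Crabp1* lies between 111 and 150.8 FPKM, all other genes at or below 20.8 FPKM, and *Aldh1a1* in MUT replicate 3 stands apart at 7.05 FPKM.

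Whether *Hras* G12V changes these genes was asked by comparing MUT with WT. No member was called: 0 of 10 had an adjusted p under 0.1 by the quasi-likelihood test of edgeR, adjusted after Benjamini and Hochberg over all 19656 genes. Of these genes 0.0102% were called, namely the immunoglobulin segments *Igkv4-91* and *Ighv3-6*, both lower in MUT and named after their values were seen. With the replicate number as a block 13 genes were called, and none was a member. DESeq2 and limma voom also called 0 of the 10, and an unadjusted p under 0.05 was reached by 0 of the 10 in each of these 3 tests, beside 2.78% of all genes in edgeR (6.60% with the block, and from 1.44% to 8.64% when MUT replicate 2 or MUT replicate 3 was left out). The log2 fold changes (MUT over WT) had a median of 0.098 over the members and 0.0066 over all genes tested, 7 being positive and 3 negative, from -0.26 to 0.38. Without MUT replicate 2 or MUT replicate 3 the signs were 5 and 5, and the median of the members was 0.014 or -0.0082. The 3 MUT values did not overlap the 3 WT values for 1 member, *Rdh10*, where 7.69% of all genes showed this. For 9 of the 10 members, and for 81.6% of all genes, the 95% confidence interval lay inside a 2-fold change in either direction, the exception being *Aldh1a1*. With 3 mice against 3, the 20 possible assignments of samples to groups keep an exact two-sided permutation test that ignores the pairing from going below p = 0.1.

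**Figure D2:**
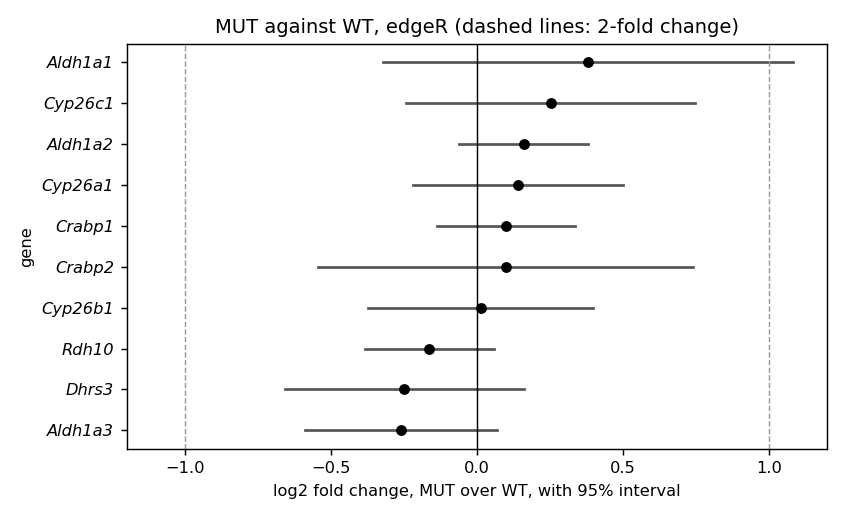
Log2 fold change of each gene, MUT over WT, from edgeR, with its 95% confidence interval as a line and a 2-fold change as dashed lines. Every interval includes 0, and only that of *Aldh1a1* (-0.32 to 1.08) passes a dashed line.

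*Rdh10* (chromosome 1, 16105774 to 16133734, plus strand, GRCm38) encodes the retinol dehydrogenase that opens the synthesis. WT mice 1 to 3 gave 392, 391 and 421 counts, and MUT mice 1 to 3 gave 348, 355 and 362 counts (the order of samples in every series of values given here). Every MUT sample was below every WT sample, and the spread within each group was small. The level averaged 17.2 ± 0.545 CPM in WT mice (SD, n = 3) and 15.3 ± 0.135 CPM in MUT mice (SD, n = 3), with p = 0.1, the smallest possible, by the exact permutation test. An exact permutation test that swaps samples only within same-numbered pairs, added after the data were seen, leaves 8 assignments and gave p = 0.25, again the smallest possible. The log2 fold change was -0.16 (standard error 0.096, 95% interval -0.38 to 0.056, unadjusted p = 0.125 and adjusted p = 0.998 from edgeR), so this difference did not pass the test. MUT was lower in all 3 pairs of samples with the same number, and the log2 fold change ranged from -0.20 to -0.14 when single samples were left out.

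*Dhrs3* (chromosome 4, 144892827 to 144928209, plus strand) encodes the reductase that returns retinaldehyde to retinol. Its counts were 226, 220 and 336 in WT and 214, 200 and 237 in MUT. The groups overlapped, and WT replicate 3 was 1.40 times the next highest sample. Levels were 11.1 ± 2.64 CPM in WT mice (SD, n = 3) and 9.37 ± 0.728 CPM in MUT mice (SD, n = 3), with a log2 fold change of -0.25 (95% interval -0.66 to 0.16), lower in MUT in all 3 pairs. WT replicate 3 was also the sample with the highest level of 5 of the 6 spermatocyte markers, 4 of the 5 spermatid markers and 4 of the 5 macrophage markers, whose part in the *Dhrs3* value was not tested. Without that sample the log2 fold change was -0.038. The summed FPKM of *Rdh10* and *Dhrs3* came to 7.94 ± 1.03 FPKM in WT mice (SD, n = 3) and 6.89 ± 0.261 FPKM in MUT mice (SD, n = 3). Every MUT sample was lower (exact two-sided permutation test, p = 0.1, or p = 0.25 within pairs). The gap was narrow, from 7.169 FPKM in MUT replicate 3 to 7.217 FPKM in WT replicate 2. The sum includes *Rdh10*, which did not overlap by itself, so it in part repeats those values. *Rdh10* made up 46.8% to 55.6% of that sum.

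The enzymes that complete the synthesis were led by *Aldh1a2* (chromosome 9, 71215789 to 71296243, plus strand), the retinaldehyde dehydrogenase known from the early embryo and from germ cells. It had 821, 887 and 1038 counts in WT and 952, 983 and 1103 counts in MUT. The groups overlapped, the number 3 sample being highest in both. The level was 39.1 ± 4.15 CPM in WT mice (SD, n = 3) and 43.7 ± 2.94 CPM in MUT mice (SD, n = 3), and the log2 fold change 0.16 (standard error 0.097, 95% interval -0.062 to 0.38, adjusted p = 0.998 from edgeR) did not pass the test. MUT was higher in all 3 pairs, and leaving out single samples gave 0.10 (without WT replicate 1 or MUT replicate 3) to 0.25 (without WT replicate 3). *Aldh1a2* supplied 67.2% to 76.8% of the summed FPKM of the 3 *Aldh1a* genes, a share that overlapped between the groups.

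*Aldh1a3* (chromosome 7, 66390890 to 66427517, minus strand), a further enzyme of this family, had 389, 403 and 440 counts in WT and 400, 280 and 338 counts in MUT. The WT samples lay close together, while MUT replicate 1 was at the WT level and the other MUT samples below it. Levels were 17.6 ± 0.863 CPM in WT mice (SD, n = 3) and 14.7 ± 2.67 CPM in MUT mice (SD, n = 3). The log2 fold change of -0.26 (standard error 0.143, 95% interval -0.59 to 0.066, unadjusted p = 0.104, adjusted p = 0.998 from edgeR) did not pass the test, and it became -0.41 without MUT replicate 1 and -0.15 without MUT replicate 2. Its share of the summed *Aldh1a* FPKM was 14.7% to 16.2% in WT and 10.1% to 14.9% in MUT.

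*Aldh1a1* (chromosome 19, 20492715 to 20643462, plus strand) encodes the family member known from the liver and from somatic cells of the testis. It had 362, 345 and 472 counts in WT and 364, 346 and 815 counts in MUT. MUT replicate 3 stood at 34.8 CPM, 1.75 times the next sample, and the other MUT samples lay within the WT range of 14.7 to 19.9 CPM. Group means were 16.8 ± 2.74 CPM in WT mice (SD, n = 3) and 21.9 ± 11.2 CPM in MUT mice (SD, n = 3), with a log2 fold change of 0.38 (standard error 0.307, 95% interval -0.32 to 1.08, adjusted p = 0.998 from edgeR). By samples of the same number MUT was higher in all 3 pairs, with log2 differences of 0.0081, 0.025 and 0.80. Without MUT replicate 3 the log2 fold change became -0.12 (standard error 0.152). All 6 listed Leydig cell markers (*Cyp11a1*, *Cyp17a1*, *Hsd3b1*, *Insl3*, *Star* and *Lhcgr*) were highest in the same sample, where their sum was 67.2 CPM against 12.9 and 13.5 CPM in the other MUT samples and 13.1 to 21.1 CPM in WT. Of the 5 peritubular myoid markers 3 were highest there as well, and none of the 8 Sertoli cell markers. Whether RNA of these cells contributed to the *Aldh1a1* value was not tested.

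**Figure D3:**
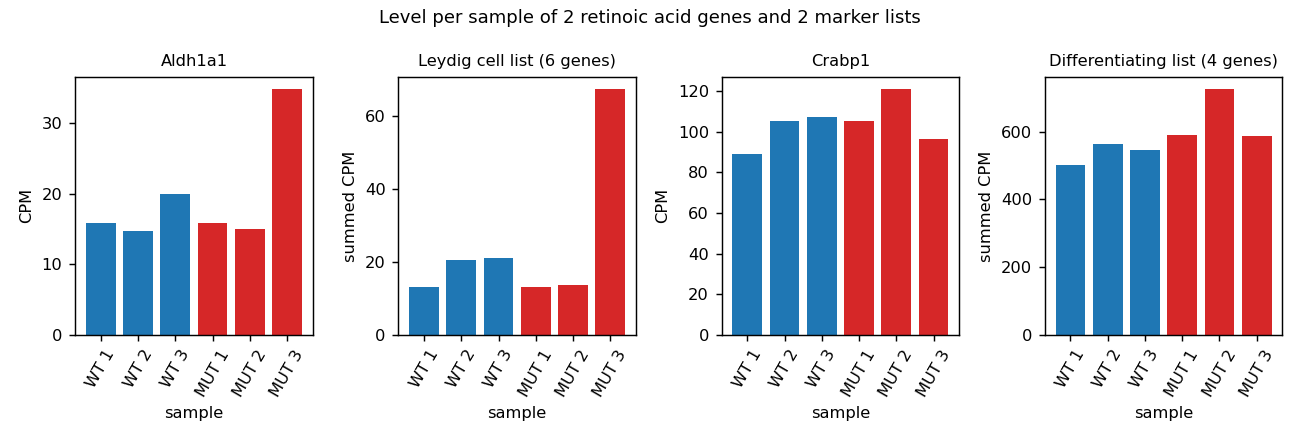
Bars show the level in each sample, as CPM, of *Aldh1a1* and *Crabp1*, and summed CPM of the 6 Leydig cell markers and the 4 markers of differentiating spermatogonia, with WT in blue and MUT in red. MUT replicate 3 is highest for *Aldh1a1* (34.8 CPM) and the Leydig list (67.2 CPM), and MUT replicate 2 is highest for *Crabp1* (121.0 CPM) and the differentiating list (724.8 CPM). Between the highest and the lowest sample, the order for *Crabp1* differs from that for the differentiating list.

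*Crabp1* (chromosome 9, 54764748 to 54773110, plus strand) encodes a cytoplasmic binding protein that holds retinoic acid away from the nucleus and hands it to CYP26 enzymes. It had 2041, 2467 and 2547 counts in WT and 2420, 2794 and 2264 counts in MUT. The groups overlapped widely, with the lowest value in WT replicate 1 and the highest in MUT replicate 2. Levels were 100.6 ± 10.1 CPM in WT mice (SD, n = 3) and 107.7 ± 12.3 CPM in MUT mice (SD, n = 3), a log2 fold change of 0.099 (standard error 0.104, 95% interval -0.14 to 0.34, adjusted p = 0.998 from edgeR), and without MUT replicate 2 it was -0.0058. The sum of the markers of differentiating spermatogonia (*Kit*, *Stra8*, *Dmrtb1* and *Sohlh1*) was likewise lowest in WT replicate 1, at 501 CPM, and highest in MUT replicate 2, at 724.8 CPM. Between these extremes the order differed. WT replicate 3 came next below MUT replicate 2 for *Crabp1* (107.5 CPM) but next above WT replicate 1 for the markers (544.4 CPM). The part of these cells in the *Crabp1* level was not tested.

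*Crabp2* (chromosome 3, 87948666 to 87953376, plus strand), whose product carries retinoic acid to the nuclear receptors, had between 27 and 38 counts in WT and between 25 and 45 in MUT, or 1.41 ± 0.248 and 1.51 ± 0.441 CPM (SD, n = 3 each). The log2 fold change of 0.098 had an interval from -0.55 to 0.74, so no difference was detectable at this depth, and it turned negative without WT replicate 3 (-0.037) or MUT replicate 2 (-0.14). *Crabp1* accounted for 99.0% to 99.4% of the summed FPKM of both binding proteins in every sample, with no separation of the groups.

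None of the degrading enzymes passed the test. *Cyp26b1* (chromosome 6, 84571414 to 84593908, minus strand), known for keeping retinoic acid from germ cells in the fetal testis, had 1073, 819 and 828 counts in WT and 733, 861 and 1133 counts in MUT. Both groups held a sample well above the other two, WT replicate 1 and MUT replicate 3. The means were nearly equal, 38.9 ± 6.86 CPM in WT mice (SD, n = 3) and 39.2 ± 8.35 CPM in MUT mice (SD, n = 3), with a log2 fold change of 0.012 (standard error 0.169, 95% interval -0.37 to 0.40). Leaving out WT replicate 2, WT replicate 3 or MUT replicate 3 made it -0.072, -0.060 or -0.17. Peritubular myoid markers summed to 12.8 CPM in MUT replicate 3, the highest of the samples, and to 7.90 CPM in WT replicate 1, the lowest, and their part in the *Cyp26b1* level was not tested.

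*Cyp26a1* (chromosome 19, 37697808 to 37701528, plus strand), the gene with the direct repeat in its promoter window, had 171, 155 and 216 counts in WT and 204, 202 and 185 counts in MUT. The lowest and the highest value were both WT. Levels were 7.73 ± 1.27 CPM in WT mice (SD, n = 3) and 8.51 ± 0.542 CPM in MUT mice (SD, n = 3), with a log2 fold change of 0.14 (standard error 0.158, 95% interval -0.22 to 0.50, adjusted p = 0.998 from edgeR). It was 0.027 without WT replicate 2 and 0.27 without WT replicate 3. *Cyp26c1* (chromosome 19, 37685581 to 37693398, plus strand), its neighbour on the chromosome and a further enzyme of the family, had 35, 35 and 29 counts in WT and 34, 42 and 41 counts in MUT, with a log2 fold change of 0.25 (95% interval -0.24 to 0.75, and 0.16 without WT replicate 3) and overlapping groups. Of the summed *Cyp26* FPKM, *Cyp26b1* made up 50.5% to 63.2%, *Cyp26a1* 30.4% to 42.4% and *Cyp26c1* 5.66% to 8.05%. The sums were 12.4 ± 1.36 FPKM in WT mice (SD, n = 3) and 13.1 ± 1.33 FPKM in MUT mice (SD, n = 3), and those of the *Aldh1a* genes 24.5 ± 2.53 and 26.9 ± 3.53 FPKM (exact two-sided permutation test, p = 0.6 and p = 0.5).

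The rest of the pathway was read from lists of 44 genes, written with earlier results of these data known. Of these genes 33 passed the filter, 23 with a positive and 10 with a negative log2 fold change. None of the 33 was called in edgeR, DESeq2 or limma voom, and 4 had an unadjusted p under 0.05 in edgeR, all higher in MUT. That is 12.1% of the 33 beside 2.78% of all genes tested, and 69.7% of the 33 had a positive sign beside 51.8% of all genes. The 4 became 2 in DESeq2 (4.88% of the listed genes tested beside 1.18% of all genes) and 2 without MUT replicate 1 (5.88% beside 2.01%). Only 1 remained without WT replicate 1 (2.94% beside 2.99%), WT replicate 2 (2.94% beside 3.24%) or MUT replicate 2 (3.03% beside 1.44%). There were 3 in limma voom (9.09% beside 2.96%) and 3 with the replicate block (9.09% beside 6.60%). There were 4 without WT replicate 3 (12.1% beside 3.63%) and 4 without MUT replicate 3 (11.8% beside 8.64%), in the latter 1 lower in MUT. Among 12 genes for retinol uptake, storage and transport (10 tested, median log2 fold change 0.11), the most abundant were *Rbp4*, a retinol carrier, at 16.5 FPKM and *Dgat1*, an acyltransferase that can esterify retinol, at 16.4 FPKM. *Rbp7*, a cellular retinol-binding protein, had the 1 unadjusted p under 0.05 of this list, with 22, 25 and 21 counts in WT and 36, 28 and 38 counts in MUT (log2 fold change 0.59, standard error 0.237, unadjusted p = 0.0352, adjusted p = 0.998 from edgeR). Of 18 other retinol and retinal oxidoreductases 9 were tested (median -0.029, none with an unadjusted p under 0.05), and 3 (*Rdh7*, *Sdr16c5* and *Sdr16c6*, named for this) had no count in any sample, which allows a level of up to 0.132 CPM before TMM scaling. *Adh5*, an alcohol dehydrogenase with broad expression, was the most abundant at 21.4 FPKM, followed by *Rdh14* at 7.89 FPKM, and their log2 fold changes were 0.0027 and -0.078.

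The 6 receptor genes were all tested (median log2 fold change 0.091), and *Rxra* at 38.8 FPKM and *Rxrb* at 21.2 FPKM were the highest. *Rarg*, the retinoic acid receptor of Aundiff, was higher in every MUT sample (1797, 1636 and 1591 counts in WT, 1898, 1928 and 1913 in MUT), with a log2 fold change of 0.20 (standard error 0.074, unadjusted p = 0.0240, adjusted p = 0.998 from edgeR). No overlap between the groups was shown by 4 of the 33 listed retinoid genes tested, beside 7.69% of all genes. All 8 genes listed as responsive to retinoic acid had a positive log2 fold change, from 0.19 to 0.44, with a median of 0.26 beside 0.0066 for all genes tested, and none passed the adjusted threshold. The list was written with earlier results of these data known, so its shared sign is not independent support. The largest value was that of *Cdx1*, named for this, with counts from 10 to 27 (standard error 0.358). *Stra8*, which retinoic acid induces on the way to differentiation and meiosis, was at 168.6 ± 8.58 CPM in WT mice (SD, n = 3) and 204 ± 32.7 CPM in MUT mice (SD, n = 3) (log2 fold change 0.28, standard error 0.111, unadjusted p = 0.0361 from edgeR), with every MUT sample above every WT sample. *Kit*, the receptor of differentiating spermatogonia, was at 141 ± 21.5 and 181.5 ± 38.6 CPM (SD, n = 3 each), with overlapping groups (log2 fold change 0.36, standard error 0.158, unadjusted p = 0.0497 from edgeR). Without MUT replicate 2 the median of the 8 genes was 0.14, and without WT replicate 2 a single gene of the 8 turned negative. *Stra8* and *Kit* are also 2 of the 4 markers of differentiating spermatogonia, whose sum did not overlap between the groups (501 to 562 CPM in WT, 586.5 to 725 CPM in MUT). *Stra8* and *Kit* make up much of that sum, so it in part repeats their values. Of the 4 markers only 1, *Stra8*, did not overlap by itself, which 7.69% of all genes showed. *Dmrtb1* and *Sohlh1* had log2 fold changes of 0.21 and 0.10. The part of these cells in the values of the list was not tested. In the other marker lists no gene was called either, and 51.8% of all genes tested had a positive log2 fold change. The change was negative for 7 of 8 markers of Aundiff (median -0.18) and 5 of 5 of spermatids (median -0.56). Negative too were 4 of 5 of macrophages (median -0.27) and 5 of 6 of spermatocytes (median -0.049). Positive were 5 of 5 tested markers of Leydig cells (median 0.98) and 4 of 5 of peritubular myoid cells (median 0.185). So were 4 of 6 tested markers of Sertoli cells (median 0.13) and 3 of 5 of endothelial cells (median 0.040). The part of these cells was not tested. *Cyp26a1* and *Dhrs3*, both known to respond to retinoic acid as well, had log2 fold changes of 0.14 and -0.25.

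**Figure D4:**
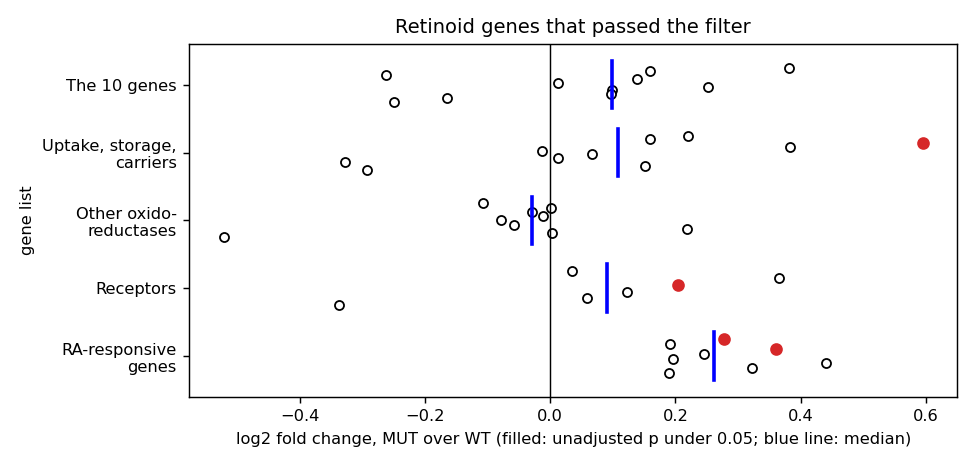
Log2 fold change, MUT over WT, of each gene that passed the filter, for the 10 genes described here and the 4 other retinoid lists, with the list median as a blue line and genes with an unadjusted p under 0.05 filled in red. All 8 genes responsive to retinoic acid lie to the right of 0 (median 0.26), while the 10 genes lie on both sides (median 0.098). The lists were written with earlier results of these data known.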

How the data were processed

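Per the file headers and labels, the authors aligned paired reads of stranded mRNA libraries with STAR to GRCm38.p6 and deposited raw fragment counts per gene name, made with featureCounts 1.6.2 on GENCODE M17 plus tdTomato, ignoring strand and leaving out multi-mapping and ambiguous fragments. Groups and replicate numbers came from the sample titles. In R 4.3.3, edgeR 4.0.16 scaled the 6 libraries by TMM, kept 19656 genes with filterByExpr and tested MUT against WT by quasi-likelihood with genotype as the only term, at an FDR of 0.1. FPKM used the deposited exon length. DESeq2 1.42.0, limma 3.58.1, other filters and size factors, the replicate block and fits without each sample were alternatives. Scripts were tested on simulated counts. The members and lists were chosen with earlier results of these data known, and no list was tested as a set. The text names all 10 members and, from each retinoid list, the genes with an unadjusted p under 0.05 (at most 4) and the 2 with the highest FPKM.

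Replicates of a group differed beyond sampling noise (chi-square per degree of freedom 4.67 to 27.6). Across 10583 genes above 10 CPM, deviations from the group means of same-numbered samples correlated at 0.30, 0.16 and 0.40. Samples of different numbers were not compared, so these values do not establish pairs. The numbers come from the labels and may follow the study's littermates. They were treated as pairs in the block fit, the within-pair permutation test and the counts of pairs, but not in the main test. The share of all genes with the same direction in every pair is not given here. With the block the smallest unadjusted p of a member in edgeR was 0.0575 (*Aldh1a3*, adjusted p = 0.763). Floors of 3 counts cover counting error only, and PCR duplicates were not marked by molecular identifiers. Strand was not used, so antisense reads cannot be told apart. No protein sequence was used here.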

Additional observations from a re-analysis of the deposited data

How the results depend on the processing

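The number of genes called in the whole table, 2 in edgeR, depended on the processing, and the cause was not tested: 9 in DESeq2 (1 higher in MUT), 4 in limma voom, 5 without a filter, 0 with at least 10 counts in every sample (494 at an unadjusted p under 0.05), 13 with the replicate block (1 higher; 1297 at an unadjusted p under 0.05), and 0 to 8 when each sample was left out (0 without MUT replicate 2, with 292 at an unadjusted p under 0.05; 8 without WT replicate 1, 5 without WT replicate 3, 1 without MUT replicate 1 and 6, of which 2 higher, without MUT replicate 3, with 1736 at an unadjusted p under 0.05). No member and no gene of the other retinoid lists was called under any of these 12 alternatives. Of 120 recomputed member fold changes 7 changed sign, all when 1 sample was left out, where the log2 fold change ranged from -0.12 to 0.58 for *Aldh1a1*, -0.17 to 0.17 for *Cyp26b1*, -0.0058 to 0.17 for *Crabp1* and -0.14 to 0.30 for *Crabp2*. It kept its sign for *Cyp26a1* (0.027 to 0.27), *Aldh1a3* (-0.41 to -0.15) and *Dhrs3* (-0.37 to -0.038). Without WT replicate 3 *Aldh1a2*, and without MUT replicate 1 *Aldh1a3*, reached an unadjusted p under 0.05. Mean FPKM moved by less than 1 SD throughout. Leaving out 1 of 6 samples cannot move a mean that far, so this does not measure stability. For *Aldh1a1*, at 3.921 FPKM over all samples, the mean ranged from 3.295 to 4.108 FPKM over 7 alternatives. Counts of 25 to 45 limit *Crabp2* and *Cyp26c1* most.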
